A study of Mus musculus with 6 samples.

Results

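The neurogenic basic helix-loop-helix (bHLH) genes described here are Neurod1, Neurod2, Neurod4, Neurod6, Neurog1, Neurog2, Nhlh1, Nhlh2 and Bhlhe22. Their rows were taken by symbol, with earlier results of these data known, and all 9 were found among the 23337 symbols of the deposited tables. RNA had been sequenced from mouse outer hair cells, which amplify sound in the organ of Corti, at embryonic stage E18.5. The cells came from a sort for an Insm1-GFP-Cre allele, and the libraries were 3 labelled Insm1-Het and 3 labelled Insm1-KO. Total RNA depleted of ribosomal RNA was copied from random primers and amplified before paired-end sequencing. Both groups thus carried GFP-Cre at Insm1, and the reference group was heterozygous, not wild type. The labels give neither the second allele of the KO group nor strain, sex or pooling, and they do not say whether libraries came from separate animals, so every p below reflects the spread among these 6 libraries alone, which may be technical.

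Factors of this family bind DNA as dimers with the broadly expressed E proteins (Tcf3, Tcf4, Tcf12) at E-boxes, short sites of the form CANNTG, and Id proteins, which lack a DNA-binding region, hold E proteins in inactive pairs. In the inner ear Neurog1 starts the neuronal lineage of the cochlear and vestibular ganglia, Neurod1 acts after it in the young neurons, and the related factor Atoh1 starts the hair cell lineage. Nhlh1, Nhlh2, Neurod2 and Neurod6 are best known from differentiating neurons, and Insm1 encodes a zinc-finger repressor that is often found downstream of proneural bHLH factors. Neurod1 has been described as a target of repression by INSM1 in endocrine cells.

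Of the 9 genes, 2 were on in these cells: Nhlh1, a factor of differentiating neurons, and Neurod6, a factor of postmitotic forebrain neurons. "On" was taken as counts in all 6 libraries and a mean of at least 1 CPM (read counts scaled to a common library total) in both genotypes. Another 6 genes had trace counts, and Neurog2, a proneural factor, had 0 counts in every library. Neither of the genes that were on passed the test between genotypes.

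The promoters of the 2 genes that were on are shown here with that of Neurog1, the gene that founds the ear's neurons and was not on, because E-boxes are the sites that this family binds. Each is the 250 bases before the RefSeq start on GRCm38.p6, read 5′ to 3′ on the gene's strand, with every CANNTG in capitals. The windows are chr1:172057597-172057846 (minus strand) for Nhlh1, chr6:55681264-55681513 (minus strand) for Neurod6 and chr13:56252181-56252430 (minus strand) for Neurog1, and none of their bases lies in a GENCODE exon of the gene.
Nhlh1: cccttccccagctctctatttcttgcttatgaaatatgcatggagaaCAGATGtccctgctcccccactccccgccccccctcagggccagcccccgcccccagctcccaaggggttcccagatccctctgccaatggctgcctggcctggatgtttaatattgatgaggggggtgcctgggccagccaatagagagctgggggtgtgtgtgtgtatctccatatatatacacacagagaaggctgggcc
Neurod6: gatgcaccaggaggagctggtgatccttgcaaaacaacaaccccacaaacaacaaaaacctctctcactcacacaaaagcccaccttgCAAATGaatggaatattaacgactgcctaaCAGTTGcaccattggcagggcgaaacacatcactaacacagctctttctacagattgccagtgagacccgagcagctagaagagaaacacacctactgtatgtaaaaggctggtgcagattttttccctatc
Neurog1: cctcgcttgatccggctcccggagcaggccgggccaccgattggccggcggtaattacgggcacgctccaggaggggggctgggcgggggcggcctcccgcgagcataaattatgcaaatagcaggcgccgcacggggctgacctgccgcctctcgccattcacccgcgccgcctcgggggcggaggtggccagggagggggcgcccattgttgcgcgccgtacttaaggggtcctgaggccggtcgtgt

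The Nhlh1 window held 1 E-box, CAGATG, whose first base is 203 bases before the start. The Neurod6 window held 2, CAAATG at 162 and CAGTTG at 132 bases before the start, and the Neurog1 window held 0. At least 1 CANNTG was present in 66.2% of the 32851 RefSeq windows of this length, and CAGATG or its reverse complement CATCTG in 14.4%. RefSeq windows were matched for 8 of the 9 genes (not for Bhlhe22). CANNTG was found in 5 of the 8 (Neurod1, Neurod2, Neurod6, Nhlh1 and Nhlh2), and CAGATG or CATCTG in 3 (Neurod2, Nhlh1 and Nhlh2). AGGGGG or CCCCCT, letters within the known binding consensus of INSM1, occurred in the windows of Neurod1, Neurog1, Neurog2, Nhlh1 and Nhlh2, that is 5 of 8, and in 23.1% of all windows. In Nhlh1 these letters began 174 and 83 bases before the start, and in Neurog1 178 and 54 bases before it. In Nhlh2 they began 54 and 36 bases before the start, within the 69 bases of that window that lie in its GENCODE exon. The share over all windows was not matched for GC content, so an excess among these genes was not tested. All matches were sought on both strands and are matches of letters only. The GC content of the shown windows was 58.4% for Nhlh1, 46% for Neurod6 and 71.2% for Neurog1.

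The 6 libraries held 7705177 to 12427039 counts, with all 3 KO totals below all 3 Het totals. Of all symbols, 11714 had enough counts to be tested. KO replicate 3 stood apart: its log2 CPM correlated with those of KO replicates 1 and 2 at 0.717 and 0.719 over 10328 genes, against 0.784 to 0.839 among the other pairs within a genotype, and fold changes that rest on it are also given without it. Outer hair cell markers were counted in all libraries for 8 of 9 genes. The summed level of the list was 808.4 to 996.1 CPM in Het and 789.9 to 844.98 CPM in KO libraries. Oncomodulin (Ocm) was the 1 gene not found in all libraries. Its level was 1.60, 2.87 and 3.67 CPM in KO replicates 1 to 3, and 0 throughout Het. Its log2 fold change, 7.81, did not pass (adjusted p = 0.920 by edgeR, as below). General hair cell markers were on for 13 of 13 genes. Insm1 itself was at 109.3, 116.2 and 69.2 CPM in Het replicates 1 to 3 and at 78.7, 60.3 and 18.7 CPM in KO replicates 1 to 3. The log2 fold change of Insm1 was -0.90 (adjusted p = 0.938 by edgeR, as below), and -0.49 without KO replicate 3. Insm1 reads were thus still counted in the KO libraries, and the removed part of the gene is not given in the sources used here.

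Nhlh1 was the most abundant of the 9 genes. It lies on the minus strand of chromosome 1 from 172052292 to 172057573 (GRCm38), has 2 exons and carries its whole coding sequence in 1 of them, from 172053899 to 172054297. Its level was 486.0, 334.3 and 303.6 CPM in Het replicates 1, 2 and 3 and 246.4, 366.6 and 348.9 CPM in KO replicates 1, 2 and 3. Het replicate 1 was the highest and KO replicate 1 the lowest library. The other 4 lay between 303.6 and 366.6 CPM, with both KO libraries among them above both Het libraries, so the groups overlapped.

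Nhlh1 averaged 374.6 ± 97.7 CPM over the Het libraries and 320.6 ± 64.9 CPM over the KO libraries (SD, n = 3 each). The log2 fold change of Nhlh1 (KO against Het) was -0.22 with a standard error of 0.26, and its 95% interval ran from -0.78 to 0.33, or 0.584-fold to 1.25-fold. In the edgeR quasi-likelihood test, adjusted by Benjamini-Hochberg over all tested genes, Nhlh1 did not pass (adjusted p = 0.984, with 0.859 to 0.99997 over the 15 alternatives). The Nhlh1 level gave p = 0.6 by exact permutation of the genotypes (two-sided), a test that cannot go below 0.1 with 3 libraries on each side. Without Het replicate 1 the direction ended, at a log2 fold change of 0.0067, and without KO replicate 3 it was -0.28. A loss of Nhlh1 to under 0.584 of the Het level, or a rise above 1.25-fold, thus lay outside the interval.

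Neurod6 was on at a lower level. The gene lies on the minus strand of chromosome 6 from 55677822 to 55681263, with 2 exons and its coding sequence in 1 of them, from 55678640 to 55679650. Neurod6 stood at 68.1, 86.9 and 74.6 CPM in Het replicates 1, 2 and 3 and at 38.8, 76.95 and 34.6 CPM in KO replicates 1, 2 and 3. KO replicates 1 and 3 lay below every Het library, whereas KO replicate 2 lay above Het replicates 1 and 3, so the groups overlapped.

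Neurod6 averaged 76.5 ± 9.56 CPM over the Het libraries and 50.1 ± 23.3 CPM over the KO libraries (SD, n = 3 each). Its log2 fold change was -0.61 with a standard error of 0.45 and a 95% interval from -1.57 to 0.35, or 0.337-fold to 1.27-fold. Neurod6 did not pass the same edgeR test either (adjusted p = 0.959, with 0.708 to 0.99997 over the 15 alternatives), and exact permutation of the genotypes gave a two-sided p = 0.3. Leaving out 1 library moved the value between -1.05, without KO replicate 2, and -0.40, without KO replicate 3. Without KO replicate 2, the KO library nearest the Het level, the genotypes did not overlap. With 1 library fewer such a gap is more common: it was found in 2793 tested genes, against 1310 with all libraries. The unadjusted p of the edgeR test in that setting was 0.0478 (adjusted p = 0.708), the smallest unadjusted p of the 15 alternatives.

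Over the whole table edgeR called 0 of 11714 tested genes at an adjusted p below 0.05, a background of 0%. At an unadjusted p below 0.05 edgeR called 626 genes (5.34%; 3.19% higher and 2.15% lower in KO), and 0 of the 2 tested bHLH members were among them. DESeq2 called 45 genes and limma-voom 0 over all genes, and both called 0 members. Of the members, limma-voom tested only Nhlh1 and Neurod6. The genotypes did not overlap in 11.2% of tested genes (5.08% with KO higher and 6.1% with KO lower) and in 0 of the 2 tested members. Both members had a negative log2 fold change (median -0.42), while 49.1% of all tested genes lay below 0 and their median was 0.02.

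**Figure D1:**
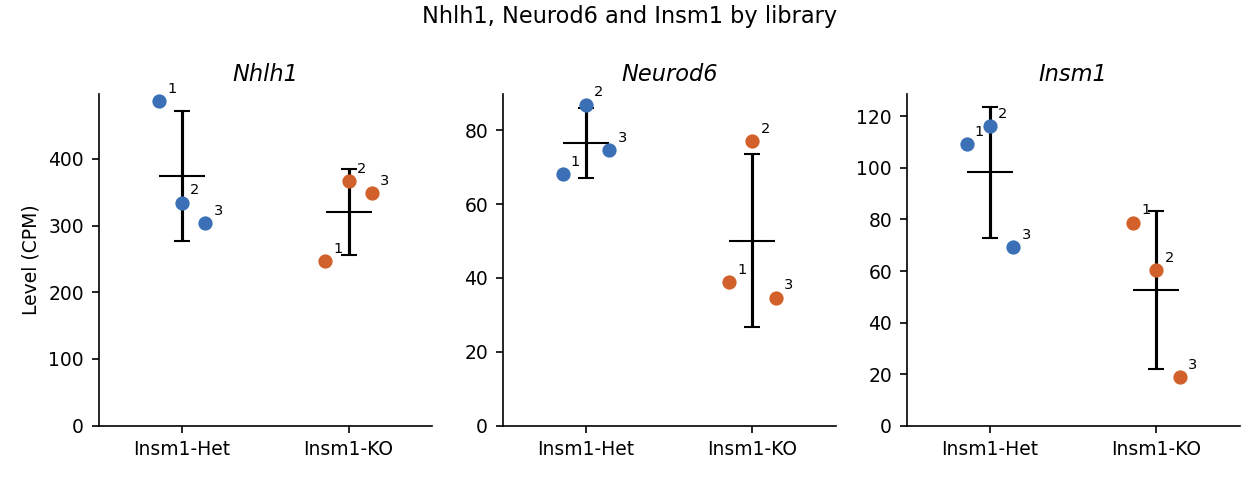
Level in CPM (vertical axes, each starting at 0) of Nhlh1, Neurod6 and Insm1 in the 3 Insm1-Het (blue) and 3 Insm1-KO (orange) libraries; numbers are replicates, and horizontal marks and bars are mean and SD. The genotypes overlap for all 3 genes, and Neurod6 is at 38.8 and 34.6 CPM in KO replicates 1 and 3 against 76.95 CPM in KO replicate 2.

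The ratio of Nhlh1 to Neurod6, both as CPM, asked whether these genes kept step, a comparison chosen after their values were seen. It was 7.14, 3.85 and 4.07 in Het replicates 1, 2 and 3 and 6.36, 4.76 and 10.1 in KO replicates 1, 2 and 3. KO replicate 3 had the highest ratio, and Het replicate 1 the next. On the log2 scale the ratio averaged 2.27 ± 0.49 in Het and 2.75 ± 0.55 in KO libraries (SD, n = 3), and the difference of 0.48 gave p = 0.3 (exact permutation, two-sided). This permutation cannot go below 0.1 with 3 libraries on each side. It therefore cannot decide whether the genotype effects on Nhlh1 and Neurod6 differ.

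Together Nhlh1 and Neurod6 made up 99.2% to 100% of the counts of the 9 genes in each library. The other 7 genes gave 3, 37 and 40 counts in Het replicates 1, 2 and 3 and 3, 0 and 1 counts in KO replicates 1, 2 and 3. For Neurog1, Neurod1, Bhlhe22 and Nhlh2 most of the counts came from a single library. None of the 7 passed the filter on low counts, so the test between genotypes was not run on them.

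Neurog1, the proneural factor of the ear's neurons (chromosome 13, 56250478 to 56252163, a single exon on the minus strand), had 29 counts in Het replicate 2, 1 count in KO replicate 3 and 0 elsewhere. Het replicate 2 held 96.7% of its counts. Neurod1, which follows it in young neurons (chromosome 2, 79452521 to 79456751, 2 exons, minus strand), had 2 counts in Het replicate 1, 25 in Het replicate 3, 3 in KO replicate 1 and 0 elsewhere. Het replicate 3 held 83.3% of them, or 1.98 CPM. The exons of Neurod1 overlap those of Cerkl on the same strand and of Gm26755 on the other, so its reads are uncertain to that extent, although Cerkl was listed at 0 in all 6 libraries. Neurog2 (chromosome 3, 127633135 to 127635631, 2 exons, plus strand) was at 0 throughout, and by the usual limit of 3 counts a count of 0 allows 0.237 to 0.391 CPM per library, for counting error only.

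Bhlhe22, a repressor of the related Olig subfamily that acts in neurons (chromosome 3, 18054174 to 18057517, a single exon on the plus strand), had 1 count in Het replicate 2, 14 in Het replicate 3 and 0 elsewhere. Nhlh2, the closest relative of Nhlh1 (chromosome 3, 102010076 to 102015492, plus strand), had 6 counts in Het replicate 2 and 0 elsewhere. Thus the 2 Nhlh genes stood far apart, one with at least 2308 counts in every library and one with counts in Het replicate 2 alone. Neurod2 (chromosome 11, 98325415 to 98329648, minus strand), a factor of maturing forebrain neurons, had 1 count each in Het replicates 1 and 3. Neurod4 (chromosome 10, 130268152 to 130280240, minus strand), a factor of retinal and other neurons, had 1 count, in Het replicate 2. Both were at 0 in all KO libraries.

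Counts that sit in 1 library were common at this depth. Among the 1312 symbols with totals of 15 to 60 counts over the 6 libraries, the median share held by the top library was 80%, and 50.5% of these symbols had at least 80% of their counts in 1 library. The libraries had been amplified and the labels name no molecular identifiers, so counts in 1 library need not stem from as many molecules. The top library of these symbols was Het replicate 1, 2 or 3 in 24.8%, 17.1% and 22.2% of cases and KO replicate 1, 2 or 3 in 16.8%, 11.7% and 7.47%. The KO libraries were also the shallower ones. No fold is given for the trace genes, and their difference between genotypes was not detectable at this depth.

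**Figure D2:**
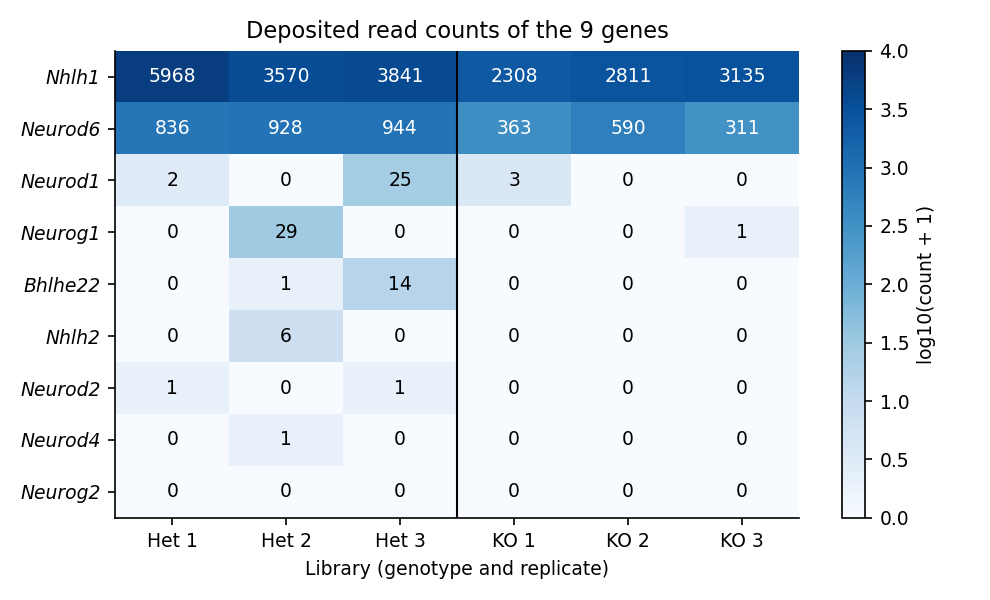
Deposited read counts of the 9 genes (rows) in the 6 libraries (columns, Insm1-Het left and Insm1-KO right of the line); numbers are counts and the colour is log10(count + 1). Nhlh1 and Neurod6 have 311 to 5968 counts in every library, and the remaining counts lie mainly in Het replicates 2 and 3.

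Low counts of the ganglion neuron markers were also spread unevenly over the libraries. Of the 8 markers at trace level, 4 were highest in Het replicate 2 (Dcx, Gap43, Ntrk2 and Prph), 1 in Het replicate 3 (Elavl3), 1 in KO replicate 2 (Tubb3) and 2 in KO replicate 3 (Nefh and Ntrk3), all named after their values were seen. Prph, a filament protein of ganglion neurons, had 61 counts, all in Het replicate 2, which also held most Neurog1 counts. Nefh, a heavy neurofilament, had 145 of its 193 counts in KO replicate 3, and Ntrk3, a neurotrophin receptor, 91 of 106, in a library with 1 count of the trace members.

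Over the whole list of 17 ganglion neuron markers KO replicate 2 was the highest library. The summed level was 1123, 1220 and 1303 CPM in Het replicates 1 to 3 and 1097, 1702 and 1214 CPM in KO replicates 1 to 3, and most of it was the neurofilaments Nefm (532.1 ± 84.6 CPM in Het, 662.9 ± 274.5 in KO; SD, n = 3) and Nefl (304.2 ± 19.7 and 345.5 ± 69.1). The exons of these 2 genes overlap. Of the list 8 genes were on, 8 were trace and Th, an enzyme of catecholamine synthesis, was at 0. By log2 fold change 9 of its 12 tested members lay below 0 and 3 above, with a median of -0.93, 0 passed in either direction, and 1 had an unadjusted p below 0.05. Summed levels in Het and KO libraries were 409.9 to 472.3 and 649.4 to 945.4 CPM for 6 inner hair cell markers, 52.8 to 121.0 and 61.7 to 108.7 CPM for 7 glia markers (Foxd3 at 0), 227.4 to 369.6 and 183.7 to 334.9 CPM for 7 mesenchyme markers (Twist1 at 0), and 88.4 to 126.5 and 46.0 to 153.5 CPM for 9 immune, endothelial and red cell markers (Csf1r and Hba-a1 at 0). The inner hair cell sum was thus higher in every KO library. Within it Brip1 (mean 2.14 CPM in Het, 195.5 in KO), Rprm (209.6 and 372.7) and Tbx2 (0.296 and 9.41) were higher in KO, without overlap. Fgf8, which was not tested, was at 9.29 and 4.67 CPM in KO replicates 1 and 3 and at 0 elsewhere. Slc7a14 was lower (235.2 and 213.2), and Slc17a8 was at trace level (0.558 and 0.641). Of the 4 tested genes of this list 0 passed, 3 had an unadjusted p below 0.05, 3 lay above 0 and 1 below. The list was chosen with earlier results of these data known, so its sum is no independent evidence. The part of other cell types in the trace counts, or in the values of Nhlh1 and Neurod6, was not tested, and in sorted bulk samples fewer cells of a type and less RNA per cell cannot be told apart.

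Levels of different genes were compared per kilobase of exon. Nhlh1 averaged 141.1 ± 32.4 CPM per kilobase and Neurod6 29.5 ± 10.02 (SD over 6 libraries), followed by Neurog1 at 0.279, Neurod1 at 0.150, Bhlhe22 at 0.0598, Nhlh2 at 0.0173, Neurod2 at 0.00851 and Neurod4 at 0.00467. Nhlh1 exceeded Neurod6 in 6 of 6 libraries, by a mean log2 ratio of 2.31 ± 0.53 (SD) per kilobase, with no overlap of their ranges. In an exact two-sided sign-flip permutation test this gave p = 0.03125, the smallest that 6 libraries allow, and an adjusted p of 0.0781 over the 5 neighbouring pairs tested. The step from Neurod6 to Neurog1 had the same p and adjusted p, also in 6 of 6 libraries. With p bounded in this way, an adjusted p could fall below 0.05 only if nearly all pairs reached the bound. The pairs were also ordered by level in these same libraries, so the test gives no independent evidence of the order. Neurog1, Neurod1, Bhlhe22 and Nhlh2 overlapped in range and their neighbours did not differ beyond their spread (exact permutation p = 0.938, 0.375 and 1, adjusted p = 1, 0.625 and 1). Neurod2 and Neurod4, with under 1 count per library on average, were left out of these tests.

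Among 11576 tested genes with a known exon length, Nhlh1 ranked 143 by level per kilobase, above 98.8% of them, and Neurod6 ranked 1609, above 86.1%. Within a group of 42 bHLH and Id genes Nhlh1 was the second after Atoh1, the hair cell master factor (261.8 CPM per kilobase), and just ahead of Hes6 (119.4), which antagonises Hes1. Neurod6 was in place 7, between Id1 (31.2) and Id3 (26.9). These places use the length of all annotated exons and were not recomputed with the longest transcript. For Tcf4 the 2 lengths are 27382 and 8577 bases, so places near Neurod6 may depend on this choice. The plot of bHLH levels shows Hes1, at 4.25 CPM per kilobase, as the lowest gene that was on, and all genes below it were trace or at 0. Of the other tissue-specific bHLH genes, 2 of 18 were on (Atoh1 and Tal1), 7 were trace and 9 were at 0 in every library, among them the proneural factors Atoh7 and Neurog3.

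**Figure D3:**
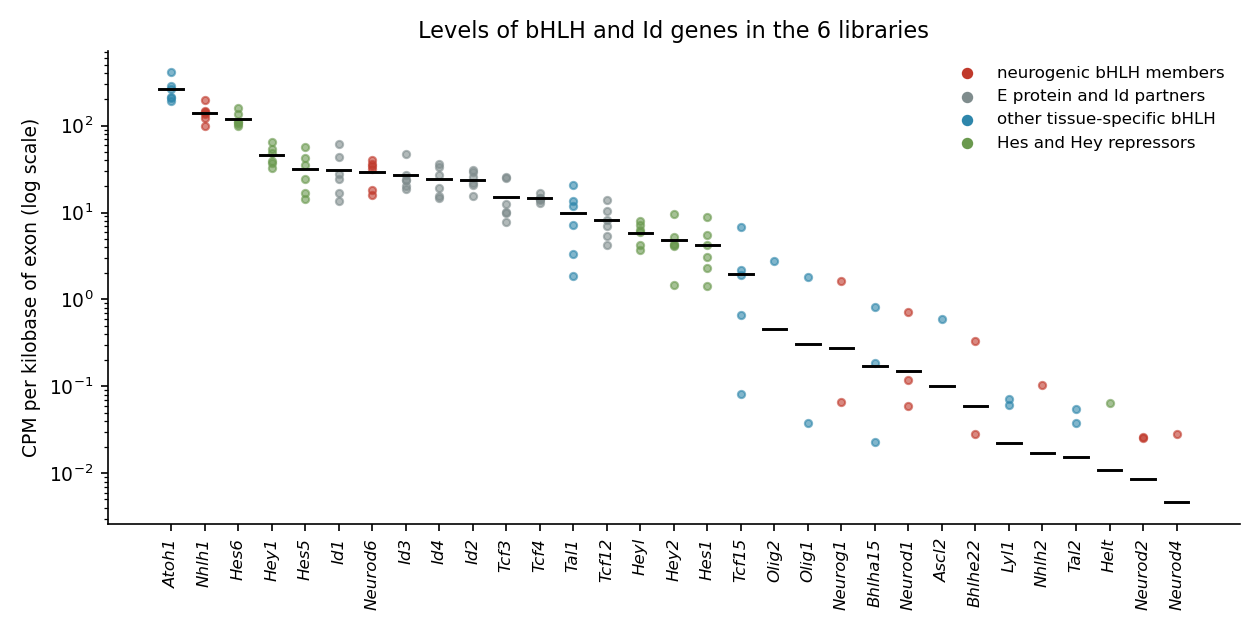
CPM per kilobase of exon (log scale) for the bHLH and Id genes with at least 1 count, ordered by mean (black bars, over 6 libraries including zeros); points are libraries above 0, coloured by gene list. Nhlh1 at a mean of 141.1 and Neurod6 at 29.5 sit among the genes counted in every library, and the other members sit at 0.279 or lower.

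Partners of these factors were measured in the same fit. All 7 E protein and Id genes were on. Tcf4, the most abundant E protein gene as CPM, was at 409.8 ± 43.1 CPM in Het and 387.5 ± 31.6 in KO libraries, and Tcf12 at 118.0 ± 40.6 and 136.3 ± 75.3 (SD, n = 3). The direction of Tcf12, a log2 fold change of 0.21, was -0.28 without KO replicate 3, and that of Tcf4, -0.08, was 0.0088 without Het replicate 2.

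Id4, an inhibitor of E protein pairing, was at 72.8, 56.9 and 59.5 CPM in Het replicates 1 to 3 and at 127.7, 104.2 and 139.4 CPM in KO replicates 1 to 3. Every KO library lay above every Het library. The log2 fold change of Id4 was 0.97 (standard error 0.34), which did not pass the edgeR test (adjusted p = 0.920, with 0.163 to 0.99997 over the alternatives). Exons of Id4 overlap those of A330033J07Rik and Gm49291, so its reads are uncertain to that extent. Id1 was at 15.6, 28.5 and 19.5 CPM in Het and 50.1, 71.3 and 31.9 CPM in KO libraries, again without overlap, with a log2 fold change of 1.27 (standard error 0.57; adjusted p = 0.920 in the same edgeR test, with 0.355 to 0.99997 over the alternatives). Without KO replicate 3 the log2 fold changes were 0.89 for Id4 and 1.53 for Id1.

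Of the 7 partner genes, 0 passed in either direction, 2 had an unadjusted p below 0.05, 6 lay above 0 and 1 below, and the median log2 fold change was 0.65 against 0.02 over all tested genes. The KO libraries all lay above the Het libraries for Id1, Id2, Id3 and Id4, or 4 of 7 (Id2 and Id3 being named after their values were seen), where 5.08% of tested genes did so. Supporting cells express Id genes as well, and the summed level of 13 supporting cell markers was 2268 to 3044 CPM in Het and 2667 to 3804 CPM in KO libraries. The part of supporting cell RNA in the Id values was not tested.

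Atoh1 was at 440.3, 411.2 and 449.6 CPM in Het replicates 1 to 3 and at 598.7, 560.2 and 871.4 CPM in KO replicates 1 to 3. All KO libraries were higher, with a log2 fold change of 0.64 (standard error 0.22; adjusted p = 0.920 by edgeR, with 0.297 to 0.99997 over the alternatives) and 0.43 without KO replicate 3. Tal1, a bHLH factor of blood cells and some neurons, varied from 8.05 to 91.2 CPM with overlapping genotypes. Of the 3 tested genes of this list 0 passed, 3 lay above 0 and the median was 0.84. Atoh1 and Nhlh1, the 2 highest per kilobase among the 42 listed bHLH and Id genes, thus had fold changes of opposite sign. A difference between them was not tested.

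Of the 8 Hes and Hey genes 6 were on. Many of this family hold proneural genes down under Notch signalling, whereas Hes6 antagonises Hes1. Hes6 was at 188.9 ± 11.97 CPM in Het and 242.7 ± 43.2 in KO libraries, Hey1 at 151.8 ± 28.1 and 149.5 ± 55.98, and Heyl at 36.0 ± 5.02 and 24.1 ± 6.84 (SD, n = 3). Of the 6 tested, 0 passed, 0 had an unadjusted p below 0.05, 4 lay above 0 and 2 below, with a median of 0.25. The small log2 fold change of Hey1, -0.02, changed sign when Het replicate 3, KO replicate 1 or KO replicate 3 was left out (0.11, 0.08 and 0.18).

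The neurogenic cascade was a list of 28 genes, with targets and cofactors of proneural factors but also general neuronal genes (Tubb3, Stmn2) and Rest. Of these, 21 were on and 7 were trace. Of 24 tested genes 0 passed in either direction, 2 had an unadjusted p below 0.05, 13 lay above 0 and 11 below, and the median was 0.04. Runx1t1, a corepressor, was at 707.3, 893.3 and 604.9 CPM in Het replicates 1 to 3 and 920.5, 872.2 and 1434 CPM in KO replicates 1 to 3, with the groups overlapping. Its log2 fold change of 0.55 (standard error 0.23; adjusted p = 0.920 by edgeR, with 0.497 to 0.99997 over the alternatives) was 0.29 without KO replicate 3. Elavl4, a neuronal RNA-binding protein, was at 16.2, 13.95 and 5.14 CPM in Het and 2.24, 1.304 and 1.56 CPM in KO libraries. All KO values were lower (log2 fold change -2.78, standard error 1.22, adjusted p = 0.920 by edgeR, with 0.226 to 0.99997 over the alternatives). They rest on only 21, 10 and 14 counts in KO replicates 1 to 3, and Elavl4 is also among the ganglion neuron markers above. Cdkn1c, a cell cycle inhibitor, was at 746.8 ± 102.8 and 739.7 ± 192.2 CPM (SD, n = 3).

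**Figure D4:**
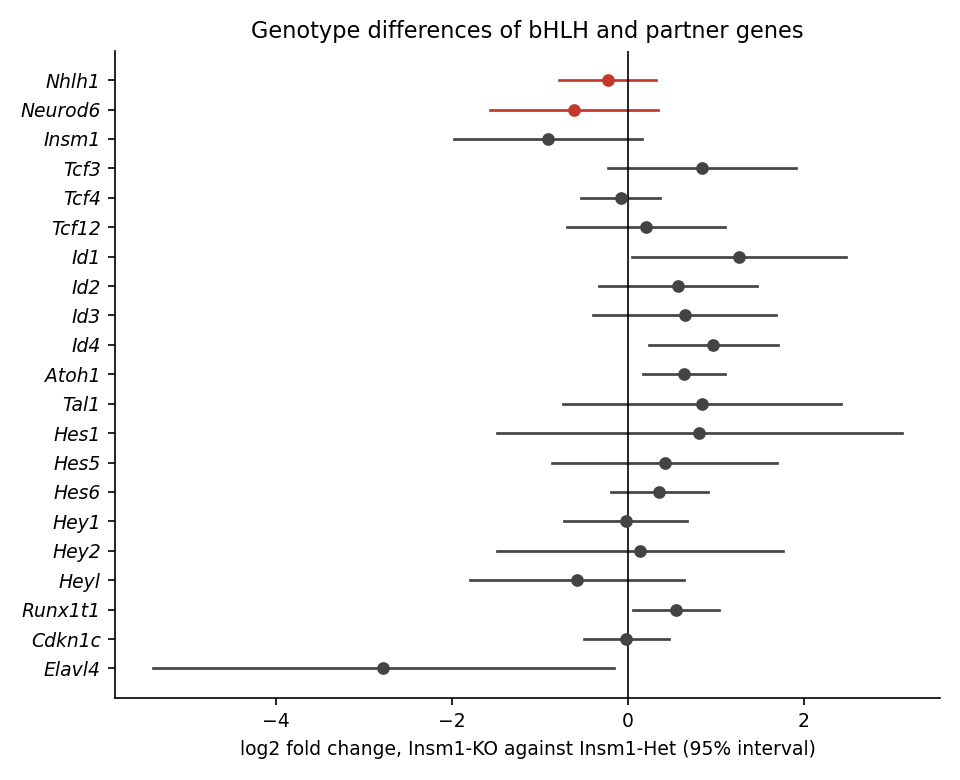
Log2 fold change of Insm1-KO against Insm1-Het (horizontal axis) with 95% intervals from edgeR for Nhlh1 and Neurod6 (red), Insm1, the E protein and Id genes and other named genes (grey), n = 3 per genotype. The intervals of Nhlh1 (-0.78 to 0.33) and Neurod6 (-1.57 to 0.35) include 0, and no gene passed after adjustment.

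The genes whose profiles over the 6 libraries were nearest to Nhlh1 were sought among 10328 tested genes with at least 5 CPM, by the root mean square difference of mean-centred log2(CPM + 0.2). They were Slc39a9, of a zinc transporter family, at 0.0990, Adcy8, an adenylyl cyclase, at 0.108, and Ept1, an enzyme of phospholipid synthesis, at 0.114. For Neurod6 they were Mid2, a ubiquitin ligase, at 0.137, Tnk2, a tyrosine kinase, at 0.141, and Cnpy2 at 0.147. Nhlh1 and Neurod6 differed from each other by 0.487 in the same measure. All genes compared in this way share the depth and composition of the same 6 libraries, and with the Pearson correlation as the measure 1 of the 3 genes for Nhlh1 and 0 of the 3 for Neurod6 were shared.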

How the data were processed

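For each library the authors deposited unnormalized read counts of gene symbols. HTSeq, STAR and Trimmomatic were named with GRCm38 (mm10), per the submitters' processing notes; their versions, the annotation and the strand setting: not given in the sources used here. Members and lists were chosen with earlier results of these data known. Genes were filtered with filterByExpr (minimum count 10, minimum total 15; 0.274% of counts removed), scaled by TMM and tested with edgeR 4.0.16 (quasi-likelihood, genotype only, R 4.3.3; Benjamini-Hochberg, threshold 0.05), which was tested on simulated data. CPM scale a gene's counts by the library's tested counts times its TMM factor; standard errors are the fold change divided by the square root of F. Exon lengths and positions came from GENCODE M21, promoters from RefSeq (GRCm38.p6). Neighbouring levels were compared as log2(CPM per kilobase + 0.01). Named genes were all members, Insm1, the 2 most abundant and 2 smallest p of each pathway list, the 2 most abundant markers where used, and the 3 nearest profiles. Alternatives were DESeq2 1.42.0, limma-voom 3.58.1, another form of the fit, 2 scalings, 2 filters, a replicate block and leaving out each library.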

Additional observations from a re-analysis of the deposited data

How the results depend on the processing

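Each of the 15 alternatives called 0 members. In limma-voom and in every edgeR setting with a filter only Nhlh1 and Neurod6 were tested, so the other members could not be called there. The number of called genes over the whole table was 0 and became 45 with DESeq2, 67 with no filter, 1 with edgeR's newer fit, 1 with the replicate block and 1 with both (chosen after seeing the data), and was 0 whichever library was left out. Deviations from the genotype means correlated only weakly between same-numbered libraries (0.0130 to 0.0325) and between the others (-0.0314 to 0.0163). Het replicate 1 correlated best with KO replicate 2, and every other library with its own number. Such weak correlations cannot decide whether the libraries were paired. With the replicate block the log2 fold change was -0.70 for Neurod6 and -0.21 for Nhlh1. Neurod6 kept its direction in all 15 alternatives (-1.05 to -0.40). With 1 library left out in turn, the log2 fold changes that turned direction ranged from -0.35 (without Het replicate 3) to 0.0067 (without Het replicate 1) for Nhlh1, from -0.18 (without KO replicate 2) to 0.18 (without KO replicate 3) for Cdkn1c, from -0.12 (without Het replicate 1) to 0.0088 (without Het replicate 2) for Tcf4, from -0.36 (without KO replicate 2) to 0.18 (without KO replicate 3) for Hey1, and from -0.28 (without KO replicate 3) to 0.55 (without KO replicate 2) for Tcf12. The cause was not tested. Neurod6, Insm1, Atoh1, Tal1, Id1, Id4, Hes6, Heyl, Runx1t1 and Elavl4 did not turn direction in any of the 15 alternatives. Whether other genes in the plot of log2 fold changes, such as Tcf3, Id2 and Id3, turned direction was not tested. The number of tested genes without overlap, 1310, was 2347 to 2992 with 1 library fewer. Depth limits the trace genes, whose fits with no filter had adjusted p values of 0.752 to 0.872 in edgeR's test with Benjamini-Hochberg adjustment.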
